A study of Mus musculus with 4 samples.

Results

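The genes described here are 10 genes of the NRF2 antioxidant and glutathione system, taken by their symbols from a list of *Nfe2l2*, its sensor *Keap1* and 8 genes that act in redox defence. All 10 were listed in every library, among 28585 genes in all. The libraries were made by bulk RNA sequencing of PMN-MDSCs, the polymorphonuclear myeloid-derived suppressor cells that were sorted as CD11b+ Ly6C low or negative Ly6G+ cells from mouse spleen on postnatal day 7. The 2 libraries labelled Dhps cko came from Dhps fl/fl pups that also carried Lysm cre (DhpsΔLysm), and the 2 labelled Dhps flox came from Dhps fl/fl pups without the Cre. *Dhps* encodes deoxyhypusine synthase, which activates the translation factor eIF5A. The Cre is expressed from the *Lyz2* locus and acts across myeloid cells, so deletion of *Dhps* and presence of the Cre insertion cannot be told apart here. Mice were C57BL/6J, both genotypes carried the floxed allele, and the labels do not say how many pups went into a library or of which sex.

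NRF2, the protein of *Nfe2l2*, is a transcription factor that cells keep scarce by marking it for destruction through KEAP1. When oxidants or electrophiles modify KEAP1, NRF2 escapes, pairs with a small MAF protein and binds antioxidant response elements near genes for glutathione synthesis, thioredoxin reduction and quinone detoxification. Much of this control acts on the protein, which RNA sequencing does not measure. Neutrophil-lineage cells are known for producing oxidants through the NADPH oxidase, and they use NADPH, glutathione and thioredoxin to protect themselves from them.

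The core of the antioxidant response element, searched as TGACNNNGC and TGAGNNNGC on both strands, shows which of these genes carry letters of the kind that NRF2 is known to bind. Promoters of 300 bases, from 250 before to 50 after the transcription start, were found in RefSeq (GRCm38.p6) for 8 of the 10 genes. The promoters of *Gclc* and *Gsr* were not among them. A match was present for 6 genes, *Nfe2l2*, *Srxn1*, *Slc7a11*, *Gclm*, *Prdx1* and *Txnrd1*, the last in 1 of its 3 promoters. *Keap1* and *Nqo1* had none in this window. Counted by promoter, 6 of the 10 promoters of these 8 genes held a match. Of all 32851 promoters in the table, 27.8% held a match, so these letters are common. The following windows hold 1 match each in capitals, read along the gene's strand, and were chosen because they show the element in 5 of the genes whose levels follow.
Srxn1: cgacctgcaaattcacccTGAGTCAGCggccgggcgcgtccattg
Prdx1: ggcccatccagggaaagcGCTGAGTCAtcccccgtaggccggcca
Gclm: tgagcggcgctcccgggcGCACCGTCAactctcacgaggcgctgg
Txnrd1: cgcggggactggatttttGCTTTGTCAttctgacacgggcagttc
Nfe2l2: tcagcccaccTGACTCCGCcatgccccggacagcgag
The *Srxn1* window lies at chr2:152105461-152105505 on the plus strand, with its match 45 bases before the start, and it is 1 of 3 matches in that promoter. Those of *Prdx1* (chr4:116685448-116685492, plus strand, 133 bases before the start), *Gclm* (chr3:122245405-122245449, plus strand, 134 bases before) and *Txnrd1* (chr10:82859096-82859140, plus strand, 92 bases before) carry the element on the opposite strand, so that the capitals show its reverse complement. The *Nfe2l2* window lies at chr2:75704877-75704913 on the minus strand, 240 bases before its start. A match is a description of the letters and not a measured binding site.

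Values are FPKM as the authors deposited them, that is fragments relative to transcript length and to library depth. The spacing of low values put the depth of the libraries at approximately 29900000 to 32000000 fragments. Genotypes were compared with limma, which shares the spread between replicates across genes, on log2(FPKM + 0.1) over 17948 genes, those whose mean reached 0.1 FPKM. All 10 genes passed this filter. *Dhps*, the targeted gene, was at 2.38 and 2.59 FPKM in DhpsΔLysm and at 3.57 and 3.11 in Dhps fl/fl, so that its mean was at 74.4% of the Dhps fl/fl level (log2 fold change -0.41, standard error 0.13, adjusted p = 0.63 from limma). *Lyz2*, the locus of the Cre, stood at 34.5% of the Dhps fl/fl mean (-1.54, standard error 0.084, adjusted p = 0.083 from limma). The neutrophil markers were abundant in each library, summing to between 72654 and 79648 FPKM over 12 genes, of which 11 were higher in DhpsΔLysm with a median log2 fold change of 0.105. Marker lists of other cells were present at far lower levels, and each of these lists also had a median log2 fold change above 0. The 10 monocyte and macrophage markers summed to 209.8 and 213.4 FPKM in DhpsΔLysm and to 170.9 and 168.1 in Dhps fl/fl, with 10 of 10 genes higher. The 8 B cell markers summed to 65.7 and 69.0 against 42.1 and 51.8, the 8 T cell markers to 18.5 and 14.98 against 11.9 and 8.01, and the 8 eosinophil markers to 99.5 and 94.6 against 80.9 and 81.9. The sums of erythroid markers (735.6 and 881.6 against 608.7 and 917.2) and primary granule markers of early neutrophils (81.3 and 54.5 against 46.3 and 56.5) overlapped between genotypes. All 5 primary granule genes tested were higher in DhpsΔLysm, 1 of them without overlap, with a median log2 fold change of 0.554. No marker that was listed stood at 0 in a whole group. The 4 Y-linked genes, added after values were seen, summed to 7.07 and 8.07 FPKM in DhpsΔLysm and to 17.6 and 15.6 in Dhps fl/fl, so the level of Y-linked transcripts moved with genotype. The part of these other-cell and Y-linked transcripts in the values of the 10 genes was not tested. In bulk samples, fewer cells of a type and less RNA per cell cannot be told apart.

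The 10 genes spanned a wide range of levels, and their order was the same in the 4 libraries except that *Prdx1* and *Keap1* exchanged places. *Gsr*, which encodes glutathione reductase, stood far above the others at 312 ± 3.1 FPKM (SD, n = 4 libraries), and 81 of the 28585 genes had a higher mean. It alone held between 78.0% and 79.6% of the summed FPKM of the 10 genes. *Nfe2l2* followed at 48.0 ± 2.6 FPKM, then *Txnrd1* at 10.1 ± 0.38, *Prdx1* at 8.44 ± 0.94 and *Keap1* at 8.33 ± 0.40. The genes for glutathione synthesis were lower, with *Gclm* at 2.85 ± 0.16, *Slc7a11* at 2.41 ± 0.26 and *Gclc* at 1.96 ± 0.068. *Nqo1* (0.903 ± 0.11) and *Srxn1* (0.720 ± 0.10), both widely used as readouts of NRF2 activity, were the lowest. In this order, *Prdx1* and *Keap1*, *Gclm* and *Slc7a11*, and *Nqo1* and *Srxn1* overlapped in their ranges over the 4 libraries, whereas every other neighbouring pair was separate. Since FPKM are scaled by length, these levels can be set beside each other within a library.

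**Figure D1:**
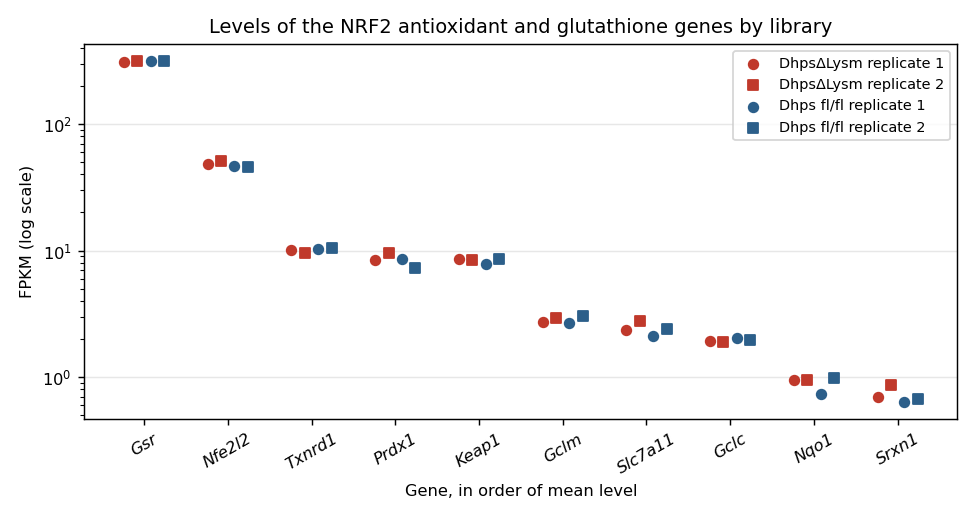
FPKM (log scale) of the 10 NRF2 antioxidant and glutathione genes in the 4 libraries, ordered by mean level, with DhpsΔLysm in red and Dhps fl/fl in blue. Gsr lies near 312 FPKM, Nqo1 and Srxn1 lie below 1 FPKM, and the points of both genotypes lie close together for each gene.

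By limma, 0 of the 10 genes passed the adjusted threshold of 0.05 between genotypes, and none reached 0.05 unadjusted either. Over all 17948 genes tested, 1 gene passed the adjusted threshold (0.00557%), the gene model *Gm20716*, which Dhps fl/fl libraries listed at 0, and 7.0% had an unadjusted p under 0.05, 4.72% higher and 2.28% lower in DhpsΔLysm. That split of 847 higher among 1257 genes moved to 628 among 1114 when FPKM were rescaled to TPM, and to 412 among 826 without DhpsΔLysm replicate 1. Both DhpsΔLysm libraries lay above both Dhps fl/fl libraries for 2 of the 10 genes, *Nfe2l2* and *Srxn1*, where 20.0% of all genes did so. Both lay below for 2, *Gclc* and *Txnrd1*, where 16.0% of all genes did. Both shares of the 10 genes lay close to that background. The 10 log2 fold changes ran from -0.08 to 0.22 with a median of 0.09, beside a median of 0.01 over all genes tested. The labels do not say that replicates came from separate pups, so p-values measure the spread between these libraries. With 2 libraries on each side, the smallest p that exact permutation allows is 0.33.

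**Figure D2:**
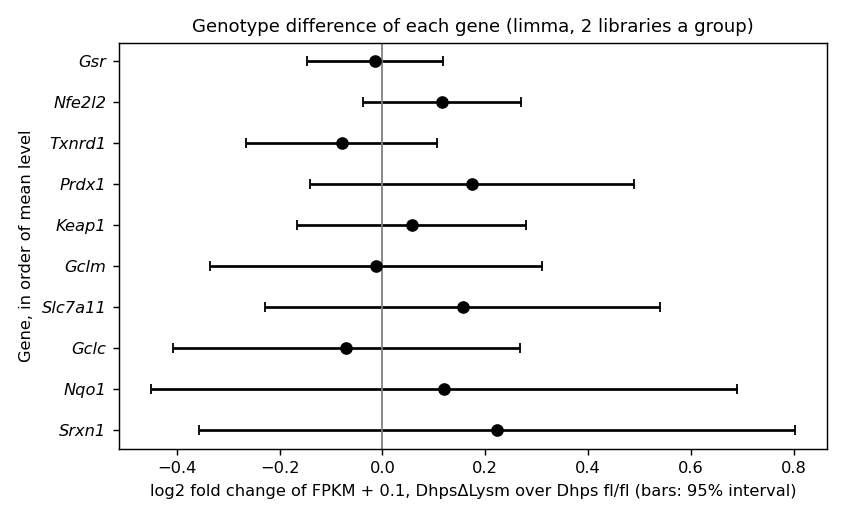
log2 fold change of FPKM + 0.1 (x axis, DhpsΔLysm over Dhps fl/fl) of each of the 10 genes, as fitted by limma with 2 libraries a group; bars are 95% intervals. All 10 intervals include 0, and they widen from Gsr, the most abundant gene, to Nqo1 and Srxn1, the least abundant.

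*Nfe2l2* (ENSMUSG00000015839) lies on the minus strand of chromosome 2 (75675513 to 75704641, GRCm38, as for the genes that follow). Its level was 48.47 FPKM in DhpsΔLysm replicate 1 and 51.50 in replicate 2, and 46.80 and 45.38 FPKM in Dhps fl/fl. Both DhpsΔLysm values were the higher ones, by a mean difference of 8.11%, where the 2 DhpsΔLysm libraries differed by 6.06% between themselves. The log2 fold change was 0.12 (standard error 0.060, 95% interval -0.04 to 0.27, adjusted p = 0.77 from limma). *Keap1* (ENSMUSG00000003308, chromosome 9, 21229730 to 21239361), whose product presents NRF2 to the CUL3 ubiquitin ligase, was at 8.64 and 8.35 FPKM in DhpsΔLysm and at 7.77 and 8.57 in Dhps fl/fl. These ranges overlapped, and the log2 fold change was 0.06 (standard error 0.086, interval -0.17 to 0.28, adjusted p = 0.93 from limma). The antisense gene model *Gm16754* covers 10.9% of the exon bases of *Keap1*, and without a stated strand setting its reads cannot be separated there. Within single libraries, the ratio of *Nfe2l2* to *Keap1*, which does not depend on scaling between libraries, was 5.61 and 6.17 in DhpsΔLysm and 6.02 and 5.30 in Dhps fl/fl, so it overlapped too.

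Glutathione is built from cysteine, glutamate and glycine. *Slc7a11* (ENSMUSG00000027737, chromosome 3, 49892526 to 50443614) encodes the transport subunit that brings in cystine. It was at 2.34 and 2.76 FPKM in DhpsΔLysm and at 2.13 and 2.42 in Dhps fl/fl, with overlapping ranges (log2 fold change 0.16, standard error 0.15, interval -0.23 to 0.54, adjusted p = 0.86 from limma). *Gclc* (ENSMUSG00000032350, chromosome 9, 77754535 to 77794485) encodes the catalytic subunit of glutamate-cysteine ligase, the rate-limiting enzyme of the pathway. It was at 1.93 and 1.88 FPKM in DhpsΔLysm and at 2.04 and 1.97 in Dhps fl/fl. The genotypes were separate for *Gclc*, with a mean difference of -5.12% where replicates differed by up to 3.49% and counting error at about 200 fragments was 7.1%, and the log2 fold change was -0.07 (standard error 0.13, interval -0.41 to 0.27, adjusted p = 0.95 from limma). *Gclm* (ENSMUSG00000028124, chromosome 3, 122245557 to 122270732), the modifier subunit of the same ligase, was at 2.75 and 2.91 FPKM in DhpsΔLysm and at 2.68 and 3.04 in Dhps fl/fl. Its DhpsΔLysm values lay between those of Dhps fl/fl, with a log2 fold change of -0.01 (standard error 0.13, interval -0.34 to 0.31, adjusted p = 0.99 from limma). Of the 50-base words in *Gclm* transcripts, 3.92% also occurred in transcripts of other genes, most of them *Ppia* and its copies, so its reads are in part uncertain. The modifier transcript exceeded the catalytic one in each library, at a ratio of 1.42 and 1.55 in DhpsΔLysm and 1.31 and 1.54 in Dhps fl/fl.

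*Gsr* (ENSMUSG00000031584, chromosome 8, 33652523 to 33698163), which returns oxidised glutathione to its reduced form at the expense of NADPH, was the most even of the 10 genes. It was at 307.98 and 313.75 FPKM in DhpsΔLysm and at 313.11 and 314.95 in Dhps fl/fl. These ranges overlapped, and at this level the interval was the narrowest of the 10, with a log2 fold change of -0.01 (standard error 0.052, interval -0.15 to 0.12, adjusted p = 0.97 from limma). The fold change depended on the scaling, at -0.05 with TPM and -0.09 with quantile scaling. On the linear scale the interval ran from 0.903-fold to 1.09-fold. Recycling transcripts outnumbered synthesis transcripts: the ratio of *Gsr* to *Gclc* was 160 and 167 in DhpsΔLysm and 153 and 160 in Dhps fl/fl.

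The thioredoxin branch reduces protein disulfides and peroxides. *Txnrd1* (ENSMUSG00000020250, chromosome 10, 82833951 to 82897712), the cytosolic thioredoxin reductase, was at 10.09 and 9.62 FPKM in DhpsΔLysm and at 10.32 and 10.51 in Dhps fl/fl. Both DhpsΔLysm values were the lower ones, with a mean difference of -5.53% where replicates differed by up to 4.77% (log2 fold change -0.08, standard error 0.072, interval -0.27 to 0.11, adjusted p = 0.85 from limma). The ratio of *Gsr* to *Txnrd1* was 30.5 and 32.6 in DhpsΔLysm and 30.3 and 29.97 in Dhps fl/fl, the only 1 of 7 ratios computed that did not overlap. *Prdx1* (ENSMUSG00000028691, chromosome 4, 116685544 to 116700822), a peroxide-reducing enzyme that thioredoxin regenerates, was at 8.37 and 9.53 FPKM in DhpsΔLysm and at 8.63 and 7.24 in Dhps fl/fl. Its ranges overlapped, and replicates differed by 13.0% and 17.5%, more than the genotype means did (12.02%). The fitted log2 fold change was 0.17 (standard error 0.12, interval -0.14 to 0.49, adjusted p = 0.82 from limma). *Prdx1* had the most sequence in common with other genes, 8.29% of its 50-base words, chiefly with *Gm21399* and *Gm7204*.

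*Srxn1* (ENSMUSG00000032802, chromosome 2, 152105516 to 152111376) encodes sulfiredoxin, which repairs overoxidised peroxiredoxins. It was at 0.70 and 0.87 FPKM in DhpsΔLysm and at 0.64 and 0.67 in Dhps fl/fl. The genotypes were separate by 0.03 FPKM or more, with a wide interval (log2 fold change 0.22, standard error 0.23, interval -0.36 to 0.80, adjusted p = 0.87 from limma). At the approximate depths these values stand for about 63, 76, 55 and 56 fragments, for which counting error alone is about 13.5% at the fewest fragments. *Nqo1* (ENSMUSG00000003849, chromosome 8, 107388225 to 107403206), a quinone reductase, had the same 0.94 FPKM in both DhpsΔLysm libraries, while Dhps fl/fl gave 0.74 and 0.99. The DhpsΔLysm value lay within the Dhps fl/fl range (log2 fold change 0.12, standard error 0.22, interval -0.45 to 0.69, adjusted p = 0.95 from limma). About 35 to 47 fragments stood behind it per library, and counting error alone is about 16.9% at the fewest.

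The other genes of the system were taken from 6 lists of 98 genes, 94 of which passed the filter. The 4 others, *Aldh3a1*, *Ces1g*, *Gsta3* and *Gstt3*, averaged under 0.1 FPKM. By limma, 0 of the 94 passed the adjusted threshold, whereas 9 with higher and 1 with lower values had an unadjusted p under 0.05, beside 4.72% and 2.28% of all genes tested. Of the 94, 64 were higher in DhpsΔLysm, where 52.2% of all genes tested were, and their median log2 fold change was 0.06. Set beside their families, the 10 genes held very different places. Among peroxiredoxins, *Prdx5* was at 254 to 305 FPKM and *Prdx6* at 28.3 to 34.4, above *Prdx1*, whereas *Prdx4* stayed between 0.69 and 1.04. *Txn1*, the cytosolic thioredoxin, was at 128 to 155 FPKM, and *Txnrd1* exceeded the mitochondrial *Txnrd2* (0.49 to 0.70). *Gpx1*, which spends reduced glutathione on hydrogen peroxide, stood at 244 to 318 FPKM, a level like that of *Gsr*. Genes of the pentose phosphate pathway, the source of NADPH for both branches, were likewise high, with *G6pdx* at 253 to 272, *Tkt* at 238 to 259, *Taldo1* at 192 to 214 and *Pgd* at 168 to 188 FPKM. *Gss*, which completes glutathione synthesis, was at 0.55 to 0.87 FPKM, as low as *Srxn1*.

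**Figure D3:**
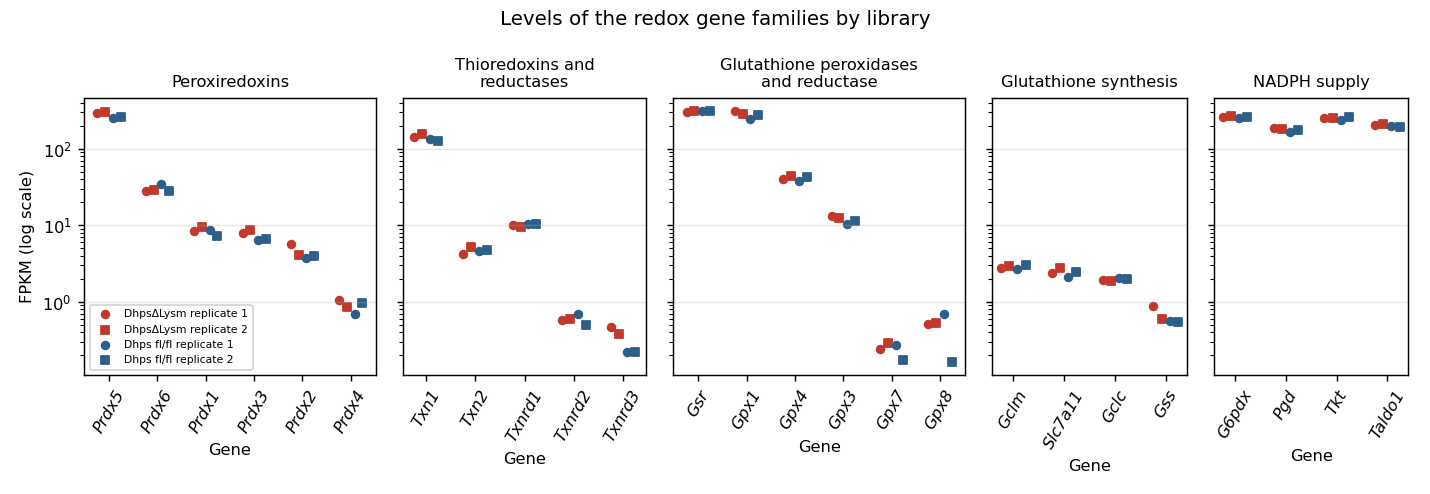
FPKM (log scale) of redox gene families in the 4 libraries, with DhpsΔLysm in red and Dhps fl/fl in blue. Prdx5, Txn1, Gsr, Gpx1 and the 4 genes of NADPH supply lie above 100 FPKM in every library, and the 4 genes of glutathione synthesis lie between 0.55 and 3.04 FPKM.

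Among the 17 other thioredoxin and peroxiredoxin genes, 14 were higher in DhpsΔLysm, beside 52.2% of all genes tested, and 4 of these had an unadjusted p under 0.05, beside 4.72%. The list median was 0.12, and 0 of the 17 passed the adjusted threshold. The number with an unadjusted p under 0.05 was 2 without the mean-variance trend and 3 with the replicate block. When a library was left out, 12 to 15 were higher. The log2 fold changes of the 4 genes then ran from 0.209 to 0.251 for *Prdx5* and from 0.204 to 0.302 for *Msrb1*. Those of *Prdx3* ran from 0.29 to 0.427 and those of *Txn1* from 0.124 to 0.232. Markers of macrophages (median 0.29), B cells (0.58), T cells (0.67) and eosinophils (0.34) were higher in the same libraries. The primary granule markers, whose sums overlapped, had a median of 0.55. The part of all these markers in the values of this and the following lists was not tested. *Prdx5*, a peroxiredoxin of mitochondria, peroxisomes and cytosol, was at 296.64 and 305.39 FPKM in DhpsΔLysm and at 253.91 and 259.43 in Dhps fl/fl. The groups were separate, with a log2 fold change of 0.23 (standard error 0.053, adjusted p = 0.51 from limma). *Msrb1*, a selenoprotein that repairs oxidised methionine, was at 160.29 and 171.54 FPKM against 136.39 and 141.98 (0.25 on the log2 scale, standard error 0.061, adjusted p = 0.53 from limma). *Prdx3*, the mitochondrial peroxiredoxin, was at 7.92 and 8.72 FPKM against 6.36 and 6.56 (0.36, standard error 0.088, adjusted p = 0.54 from limma). *Txn1* was at 144.14 and 155.45 FPKM against 136.64 and 128.10 (0.18, standard error 0.067, adjusted p = 0.70 from limma). These 4 genes were named for their unadjusted p, so nothing is read from their separation. Over the whole list, 7 of 17 were higher without overlap, beside 20.0% of all genes. When the 10622 genes that averaged 1 FPKM or more and had a length were put into 5 groups of like size by transcript length, the median log2 fold change was 0.10 in group 1, the shortest, 0.06 in group 2 and -0.06 in group 5, the longest. *Txn1* and *Msrb1* belonged to group 1, as did *Ftl1*, *Gpx1* and *Mgst1*. *Prdx3*, *Prdx5*, *Hmox1*, *Gpx3* and *Prdx1* belonged to group 2, whereas *Abcc3* and *Slc7a11*, whose fold changes were also above 0, belonged to group 5, and the part of transcript length in the values of these genes was not tested.

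Of 22 other NRF2 target genes tested, 15 were higher and 3 of these had an unadjusted p under 0.05, beside the same 52.2% and 4.72% of all genes, with a median of 0.05. With quantile scaling, and also without Dhps fl/fl replicate 2, 11 of the 22 were higher. An unadjusted p under 0.05 was reached by 0 of them without DhpsΔLysm replicate 1, and by 1 without DhpsΔLysm replicate 2, with the replicate block, without the mean-variance trend or with each gene modelled alone. *Hmox1*, heme oxygenase 1, was at 70.00 and 73.96 FPKM in DhpsΔLysm and at 61.78 and 64.55 in Dhps fl/fl (log2 fold change 0.19, standard error 0.059, adjusted p = 0.63 from limma). *Ftl1*, the ferritin light chain, was at 381.23 and 371.54 FPKM against 335.93 and 307.99 (0.23, standard error 0.066, adjusted p = 0.60 from limma). *Abcc3*, an exporter of conjugates, was at 4.54 and 4.24 FPKM against 3.35 and 3.32 (0.39, standard error 0.10, adjusted p = 0.56 from limma). These 3 genes were named for their unadjusted p too, and over the whole list 10 of 22 were higher and 2 lower without overlap, beside 20.0% and 16.0% of all genes. *Hmox1* and *Ftl1* are also abundant in iron-recycling macrophages of the spleen. The macrophage list was higher as well, at a median of 0.29 on the log2 scale with 4 of 10 genes at an unadjusted p under 0.05, and its part in these values was not tested.

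Of 20 other glutathione genes, 17 were higher, beside 52.2% of all genes tested, with a median of 0.10, although 12 were without Dhps fl/fl replicate 2. An unadjusted p under 0.05 was reached by 1 of the 20, a share near the 4.72% of all genes, and by 0 without either DhpsΔLysm library or with the replicate block. This was *Gpx3*, the secreted glutathione peroxidase, at 13.31 and 12.58 FPKM in DhpsΔLysm and at 10.54 and 11.43 in Dhps fl/fl (log2 fold change 0.24, standard error 0.079, adjusted p = 0.65 from limma). *Gpx1*, the most abundant of this list, was at 317.99 and 284.00 FPKM against 244.31 and 277.66, with a log2 fold change of 0.21 (standard error 0.093, adjusted p = 0.76 from limma). Over the whole list, 9 of 20 were higher without overlap, beside 20.0% of all genes. Of 17 glutathione transferases tested, 11 were higher, beside 52.2% of all genes tested, and the median was 0.07. Without Dhps fl/fl replicate 2, 6 were higher, with a median of -0.07, and without DhpsΔLysm replicate 1, 8 were. Without overlap between genotypes, 6 of the 17 were higher and 2 lower, beside 20.0% and 16.0% of all genes. *Mgst1*, a microsomal transferase and the most abundant, was at 141.06 and 151.33 FPKM against 139.44 and 128.38 (0.13, standard error 0.070, adjusted p = 0.78 from limma). *Gsta4*, named after its values were seen, was the only 1 of the 17 with an unadjusted p under 0.05, a share near the 4.72% of all genes. It was at 0.87 and 0.74 FPKM against 0.52 and 0.31 (0.84, standard error 0.30, adjusted p = 0.68 from limma). Its log2 fold change was 0.35 with a pseudocount of 1.

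Of 15 partners and regulators of NRF2 tested, 10 were lower and 5 higher in DhpsΔLysm, where 52.2% of all genes tested were higher. Their median log2 fold change was -0.07. By limma, 0 of the 15 had an unadjusted p under 0.05, beside 7.0% of all genes. That number was 1 with size factor scaling or without the mean-variance trend, and 2 with each gene modelled alone. Without overlap between genotypes, 8 of the 15 were lower and 2 were higher, where 16.0% and 20.0% of all genes were. The most abundant, *Nfe2*, a relative of *Nfe2l2* that also pairs with small MAF proteins, was at 96.73 and 98.90 FPKM in DhpsΔLysm and at 86.86 and 94.05 in Dhps fl/fl (0.11 on the log2 scale, standard error 0.062, adjusted p = 0.78 from limma). *Bach1*, which represses antioxidant response elements, was at 22.58 and 22.30 FPKM against 23.86 and 23.58, and *Mafg*, a partner of NRF2, at 35.29 and 33.62 against 31.71 and 33.14. *Bach1*, *Mafg* and the 2 genes that follow were named after their values were seen. *Bach1* and *Mafg* were separate between genotypes, in opposite directions, by log2 fold changes of -0.08 and 0.09. The other small MAF genes were lower in DhpsΔLysm without overlap. *Mafk* was at 5.79 and 5.95 FPKM against 6.61 and 6.5 (-0.16), and *Maff* at 0.25 and 0.26 against 0.31 and 0.46 (-0.43). Among the superoxide dismutases and catalase, 2 of 4 genes were higher, beside 52.2% of all genes, and the median was -0.07, or 0.06 with *Sod3* left out by a filter at 1 FPKM. *Cat*, which breaks down hydrogen peroxide, was at 12.83 and 14.20 FPKM against 12.59 and 13.33. *Sod3*, the extracellular dismutase, also named after its values were seen, was the 1 of these 4 genes with lower values and an unadjusted p under 0.05, beside 2.28% of all genes, at 0.40 and 0.31 FPKM against 0.81 and 0.96 (-1.12, standard error 0.26, adjusted p = 0.51 from limma; -0.48 with a pseudocount of 1).

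**Figure D4:**
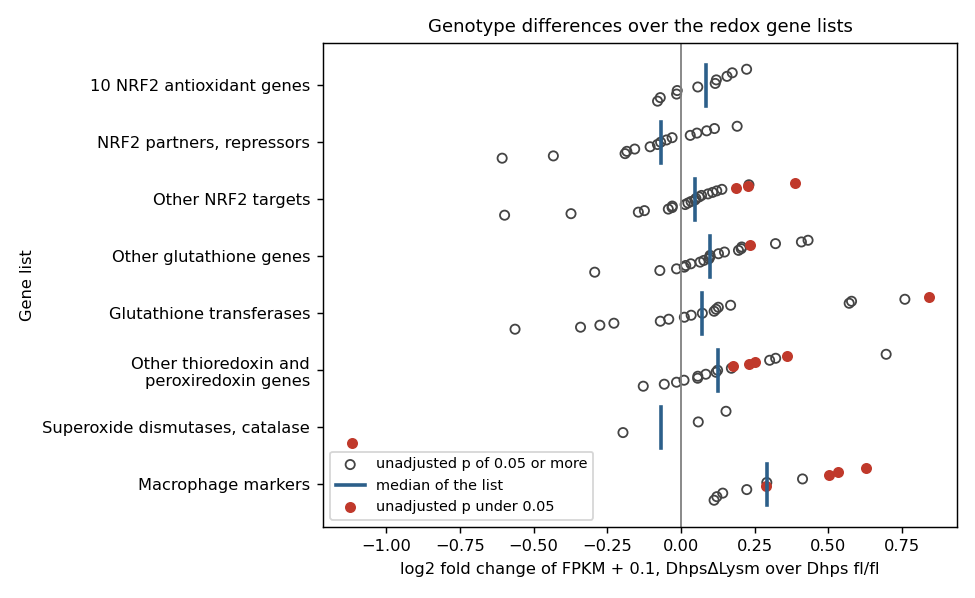
log2 fold change of FPKM + 0.1 (x axis, DhpsΔLysm over Dhps fl/fl) of each gene tested, for the 10 NRF2 antioxidant genes, 6 lists of related genes and the macrophage markers; filled points had an unadjusted p under 0.05 and bars mark list medians. The 10 genes lie between -0.08 and 0.22, with a median of 0.09, and the macrophage markers have a median of 0.29.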

How the data were processed

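Bulk RNA sequencing of 4 libraries was used. The authors filtered reads with Cutadapt 1.9, aligned them with HISAT2 2.2.1 (mm10 in the submitters' processing notes) and deposited FPKM per gene from StringTie 2.1.6 and ballgown. The annotation and strand setting are not given in the sources used here. Coordinates come from GENCODE M21 (GRCm38), which holds 28511 of the 28585 gene identifiers. The model was limma 3.58.1 (R 4.3.3), with a mean-variance trend, fitted to log2(FPKM + 0.1) of all genes that averaged 0.1 FPKM or more, with Benjamini-Hochberg adjustment and a threshold of 0.05. The fit was tested on simulated data. FPKM hold no counts, so fragment numbers are approximate: the depth was searched between 15000000 and 50000000 fragments, using the low values of short single-exon genes (200 to 1500 bases), and each gene's longest transcript was used. They cover counting error only. The members and lists were chosen with earlier results of these data known. The named genes are the 10 members, *Dhps* and *Lyz2*, and of each list the most abundant gene and up to 4 genes that averaged 1 FPKM or more and had an unadjusted p under 0.05. *Gm20716* and the genes given only as family levels were named outside it, after their values were seen. The fits of the members, *Dhps*, the named list genes and the counts over the 6 lists and all genes were repeated with other pseudocounts and filters, with TPM, size factor and quantile scaling, with other variance models, with a replicate block and without each library.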

Additional observations from a re-analysis of the deposited data

How the results depend on the processing

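By limma, 0 of the 10 genes passed 0.05, adjusted or not, under any of the 14 alternatives, of which the filter at 1 FPKM left *Nqo1* and *Srxn1* untested. The fold changes of *Nfe2l2*, *Gclc*, *Txnrd1*, *Srxn1*, *Slc7a11*, *Gsr* and *Prdx1* kept their direction wherever they were tested, but not their size: with a library left out, *Prdx1* ran from 0.049 (without Dhps fl/fl replicate 2) to 0.299 (without Dhps fl/fl replicate 1), and *Gsr* reached -0.001 without DhpsΔLysm replicate 1 and -0.085 with quantile scaling. *Slc7a11* ran from 0.042 to 0.271 and *Srxn1* from 0.084 to 0.362, the lowest without DhpsΔLysm replicate 2 and the highest without replicate 1. Without Dhps fl/fl replicate 1, *Gpx1* was at 0.114 and *Nfe2* at 0.056. Without Dhps fl/fl replicate 2, *Mgst1* was at 0.067 and *Gsta4* at 0.542. *Ftl1* was at 0.111 with quantile scaling. With each library left out, the log2 fold change of *Keap1* ran from -0.013 to 0.127 and that of *Nqo1* from -0.068 to 0.308, the lowest without Dhps fl/fl replicate 1 in both. That of *Gclm* ran from -0.100 to 0.075 and was above 0 without DhpsΔLysm replicate 1 (0.027) and without Dhps fl/fl replicate 2 (0.075). *Cat* was at -0.014 without DhpsΔLysm replicate 2. With a library left out, the median of the 10 ran from -0.016 (without Dhps fl/fl replicate 1) to 0.085, and it was 0.022 over the 8 genes left by the filter at 1 FPKM. When a library was left out, 6 to 8 of the 10 did not overlap (8 without either Dhps fl/fl library), beside 62.8% to 71.0% of all genes tested over the same settings. Over all genes, the adjusted threshold was passed by 2 genes with TPM or quantile scaling, by 4 with the filter at 1 FPKM and by 12 with each gene modelled alone. It was passed by 0 with a pseudocount of 0.01 (1216 genes unadjusted), with no filter (1675), with the replicate block (1082) and without any 1 library (746 to 1608). Of the 6 related lists, 6 genes had an unadjusted p under 0.05 with the replicate block and 3 to 11 without 1 library, namely 3 without DhpsΔLysm replicate 1 and 5 without replicate 2. A fit that leaves 1 library in a group takes the spread between replicates from the other group alone. Nothing is therefore read from the number of genes passing in such fits. The causes were not tested. The labels pair no libraries beyond a replicate number, although the paper describes the genotypes as littermates. Deviations of both first libraries correlated at -0.057 over 10629 genes. A single correlation cannot show whether libraries shared a litter or a batch, and this was not tested.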
